A study of Mus musculus with 4 samples.

Results

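The mannose receptor gene Mrc1 and 8 other genes of scavenging and dead-cell uptake (Stab1, Cd163, Msr1, Marco, Folr2, Mertk, Axl and Gas6) were followed in leukocytes of the mouse gut muscle after surgical handling of the intestine. They were chosen by name, with earlier results of these data known, and are 9 of the 16308 genes counted in each of 4 libraries. Counts of members set beside the share of all genes are therefore descriptions. CD45+ leukocytes were taken from the muscularis externa, the outer muscle coat that houses the myenteric nerve plexus, of the small intestine of 12-week-old mice, and droplet 3′ single-cell RNA-seq was run on them. The libraries came from wild-type (WT) C57BL/6J mice 24 h after intestinal manipulation, from WT mice 72 h after it, and from CCR2 knockout (KO) mice (Ccr2-/-, B6.129S4-Ccr2tm1Ifc/J) at either time. Monocytes leave the bone marrow by way of CCR2, a receptor for chemokines, and the knockout lacks it in every cell from birth. All groups underwent the manipulation and each was 1 library. The mice of a group were pooled. There was therefore no replicate of any group, no test between groups was possible, and each interval given is a 95% interval for counting error only. Genotype, time and library cannot be told apart from one another where only 1 library stands for each.

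Macrophages clear dying cells and debris with receptors of several families. MERTK and AXL are receptor tyrosine kinases that recognise phosphatidylserine on dying cells through a bridging protein. GAS6 bridges to both of them, and protein S, encoded by Pros1, serves MERTK. Stabilin-1 (Stab1) binds phosphatidylserine directly and also takes up modified lipoproteins. MRC1 (CD206) internalises mannosylated glycoproteins, CD163 takes up haemoglobin bound to haptoglobin, and MSR1 and MARCO are class A scavenger receptors for modified lipoproteins and bacteria. Folate receptor beta (Folr2) is best known as a marker of resident tissue macrophages.

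In the GENCODE vM21 annotation of GRCm38 the 9 genes lie on 6 chromosomes and all are protein coding. Mrc1 spans chr2:14229392-14332057 on the plus strand and Mertk chr2:128698956-128802894 on the plus strand of the same chromosome. Stab1 spans chr14:31139013-31168641 on the minus strand, Cd163 chr6:124304656-124330527 on the plus strand and Marco chr1:120474538-120505024 on the minus strand. Msr1 (chr8:39581685-39642673) and Gas6 (chr8:13465374-13494490) share a chromosome, as do Folr2 (chr7:101839988-101857194) and Axl (chr7:25757273-25788705), and these 4 lie on minus strands.

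Mrc1, Stab1 and Gas6 had levels that moved together over the macrophage sub-clusters described further on, so the sequences just upstream of their starts are shown, a choice made after their values were seen. Each is the reference stretch from base 250 to base 51 before the RefSeq start (GRCm38.p6), written 5′ to 3′ on the gene's own strand, at chr2:14229164-14229363 for Mrc1, chr14:31168692-31168891 for Stab1 and chr8:13494586-13494785 for Gas6. Capitals mark the PU.1 core GAGGAA read on either strand.
Mrc1: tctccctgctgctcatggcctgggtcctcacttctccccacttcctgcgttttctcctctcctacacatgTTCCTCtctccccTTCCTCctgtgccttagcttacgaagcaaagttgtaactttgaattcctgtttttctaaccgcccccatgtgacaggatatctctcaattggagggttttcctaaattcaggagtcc
Stab1: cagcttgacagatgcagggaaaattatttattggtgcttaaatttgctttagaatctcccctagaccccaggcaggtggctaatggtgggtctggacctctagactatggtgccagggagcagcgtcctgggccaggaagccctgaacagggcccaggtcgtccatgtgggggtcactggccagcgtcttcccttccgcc
Gas6: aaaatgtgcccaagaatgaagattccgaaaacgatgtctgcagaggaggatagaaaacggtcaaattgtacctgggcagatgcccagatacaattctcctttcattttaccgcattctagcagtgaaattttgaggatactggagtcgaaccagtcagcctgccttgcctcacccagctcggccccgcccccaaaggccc
The Mrc1 stretch held 2 copies of the PU.1 core and those of Stab1 and Gas6 held 0. RefSeq had promoter entries for 8 of the 9 genes, all but Msr1, giving 9 stretches of 200 bases because Folr2 had an entry for each of its starts. The PU.1 core lay in 3 of these 9 (Mrc1, Marco and Axl), against 18.8% of 32851 stretches of the same length over all genes. The Maf half-site TGCTGA lay in 1 (Folr2, against 13.1%), and the interferon-stimulated response element lay in 0 (against 2.40%). The motifs were searched on both strands, and the end of a PU.1 core can share bases with the interferon-stimulated response element. A match describes letters in a window and not a bound site.

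The files held 5811 cells, of which 5799 were used, at 1674 for WT at 24 h, 1768 for CCR2 KO at 24 h, 1315 for WT at 72 h and 1042 for CCR2 KO at 72 h. Totals ran from 9620609 to 21206308 unique molecular identifiers (UMIs, 1 per captured RNA molecule), with library medians of 3282.5 to 12859 UMIs per cell and the lower medians in both CCR2 KO libraries. Cells were clustered without the 9 genes and without Ccr2 among the genes that drove the clusters, and clusters were named only from fixed marker lists. Monocyte/macrophage-like cells numbered 1277, 220, 839 and 130 first in WT and CCR2 KO at 24 h and then in WT and CCR2 KO at 72 h, the order used for every run of 4 values from here on. They made up 76.3%, 12.4%, 63.8% and 12.5% of each library's cells. All 21 monocyte and macrophage markers reached 20 CPM (a gene's UMIs divided by the summed UMIs of the class in that library, on the scale of UMIs per 1e6) in all 4 libraries. In this class Ccr2 itself stood at 754, 95.2, 1085 and 100.4 CPM, so both CCR2 KO libraries were low but not at 0, and the position of the 3′ reads relative to the altered part of the allele was not checked.

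Some libraries stood apart within the class. In CCR2 KO at 72 h, 65.4% of monocyte/macrophage-like cells had over 5% mitochondrial UMIs, against 34.7% in WT at 72 h and, at 24 h, 16.4% in CCR2 KO and 256 of 1277 cells in WT. The 5 plasma cell markers summed to 1395 CPM in that library, against 76.5 to 83.0 CPM in the other 3. The 11 neutrophil markers summed to 879 CPM in WT at 24 h, against 299 to 358 CPM in the others. The 11 dendritic cell markers summed to 6.05 to 30.9 CPM, the 7 B cell markers to 36.4 to 227 CPM and the 14 non-immune markers to 24.2 to 49.9 CPM. The part of these differences in the values below was not tested, apart from the counts repeated on cells with at most 5% mitochondrial UMIs. Only 4 cell barcodes occurred in more than 1 library.

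The 9 genes were read mainly from monocyte/macrophage-like cells. Among cell classes, this one held 73.4% to 98.0% of each library's Mrc1 UMIs, 75.1% to 99.5% of its Stab1 UMIs and 80.1% to 99.7% of its Msr1 UMIs. Axl, the uptake receptor best known from dendritic cells and interferon-exposed macrophages, was more spread, with 93.7%, 89.3%, 83.7% and 49.5% of its UMIs in the class, the lowest share of the 9 genes except in WT at 72 h (Cd163, 83.1%), and 6.11%, 9.26%, 10.0% and 28.8% in dendritic cell-like cells. At CCR2 KO 72 h a further 23.0% of Mrc1 UMIs came from cells left unnamed, most of them in a cluster led by Birc5, Stmn1, Ube2c and Top2a, genes of dividing cells. That cluster held 47 cells in WT at 72 h and 38 in CCR2 KO at 72 h, and in it Mrc1 stood at 461 and 526 CPM and Stab1 at 166 and 266 CPM.

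In neutrophil-like cells (307, 1335, 192 and 591 cells) every member was at 6.68 CPM or less in every library. Mrc1 there was at 6.68, 1.67, 2.09 and 3.08 CPM. In T, NK and innate lymphoid-like cells, which should lack these receptors and so serve as a measure of free RNA, Mrc1 was at 0, 2.96, 47.0 and 0.909 CPM and Axl at 0, 10.4, 39.6 and 11.8 CPM. The 47.0 CPM came from 19 Mrc1 UMIs with up to 8 in 1 cell. With cells gated singly, the 35 T cell-like and 14 NK cell-like cells of WT at 72 h had 0 Mrc1 UMIs. The 29 innate lymphoid-like cells of that library had 7 (36.3 CPM), with 6 of them in 1 cell. Whether the 47.0 CPM was free RNA was not tested. All of these levels lay well under the macrophage level of the same library. Lymphoid-like cells numbered only 20, 92, 59 and 129.

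Dendritic cell-like cells (60, 59, 134 and 106) carried Mrc1 at 175, 35.7, 359 and 24.0 CPM and Axl at 71.2, 53.6, 136 and 51.1 CPM. Stab1 in them was at 14.8, 11.7, 88.7 and 8.74 CPM and Gas6 at 1.98, 0, 39.8 and 1.94 CPM. Both WT libraries were thus above both CCR2 KO libraries for Mrc1 in this class, and the highest value of each of these genes was in WT at 72 h. The WT values depended on how the class was made: with cells gated singly Mrc1 was at 71.6, 39.2, 175 and 26.2 CPM, in the same order, and in WT at 72 h Stab1 was at 34.7 CPM and Gas6 at 10.6 CPM. The 20 B cell-like cells of WT at 72 h held Mrc1 at 485 CPM, Folr2 at 279 CPM and Gas6 at 158 CPM, with up to 41 Mrc1 UMIs, 53 Folr2 UMIs and 19 Gas6 UMIs in 1 cell. The other 3 libraries had B cell-like Mrc1 of 0 to 16.8 CPM.

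Over the whole table, 173 of 7668 genes, or 2.26%, were more than 2-fold higher in monocyte/macrophage-like cells than in neutrophil-like, dendritic cell-like and lymphoid-like (T, NK and innate lymphoid) cells in all 4 libraries. B cell-like cells were not among the classes compared. Against those of WT at 72 h, Mrc1, Folr2 and Gas6 would not have met the rule at the levels given above, so the count holds only for the classes named. Of the 8 members that entered this count 7 met the rule, Axl being the exception, with 57.5 CPM in monocyte/macrophage-like and 71.2 CPM in dendritic cell-like cells of WT at 24 h. With cells gated singly on the markers instead of clustered, that order turned (58.5 and 52.2 CPM). Marco had a mean below the 10 CPM needed to enter.

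**Figure D1:**
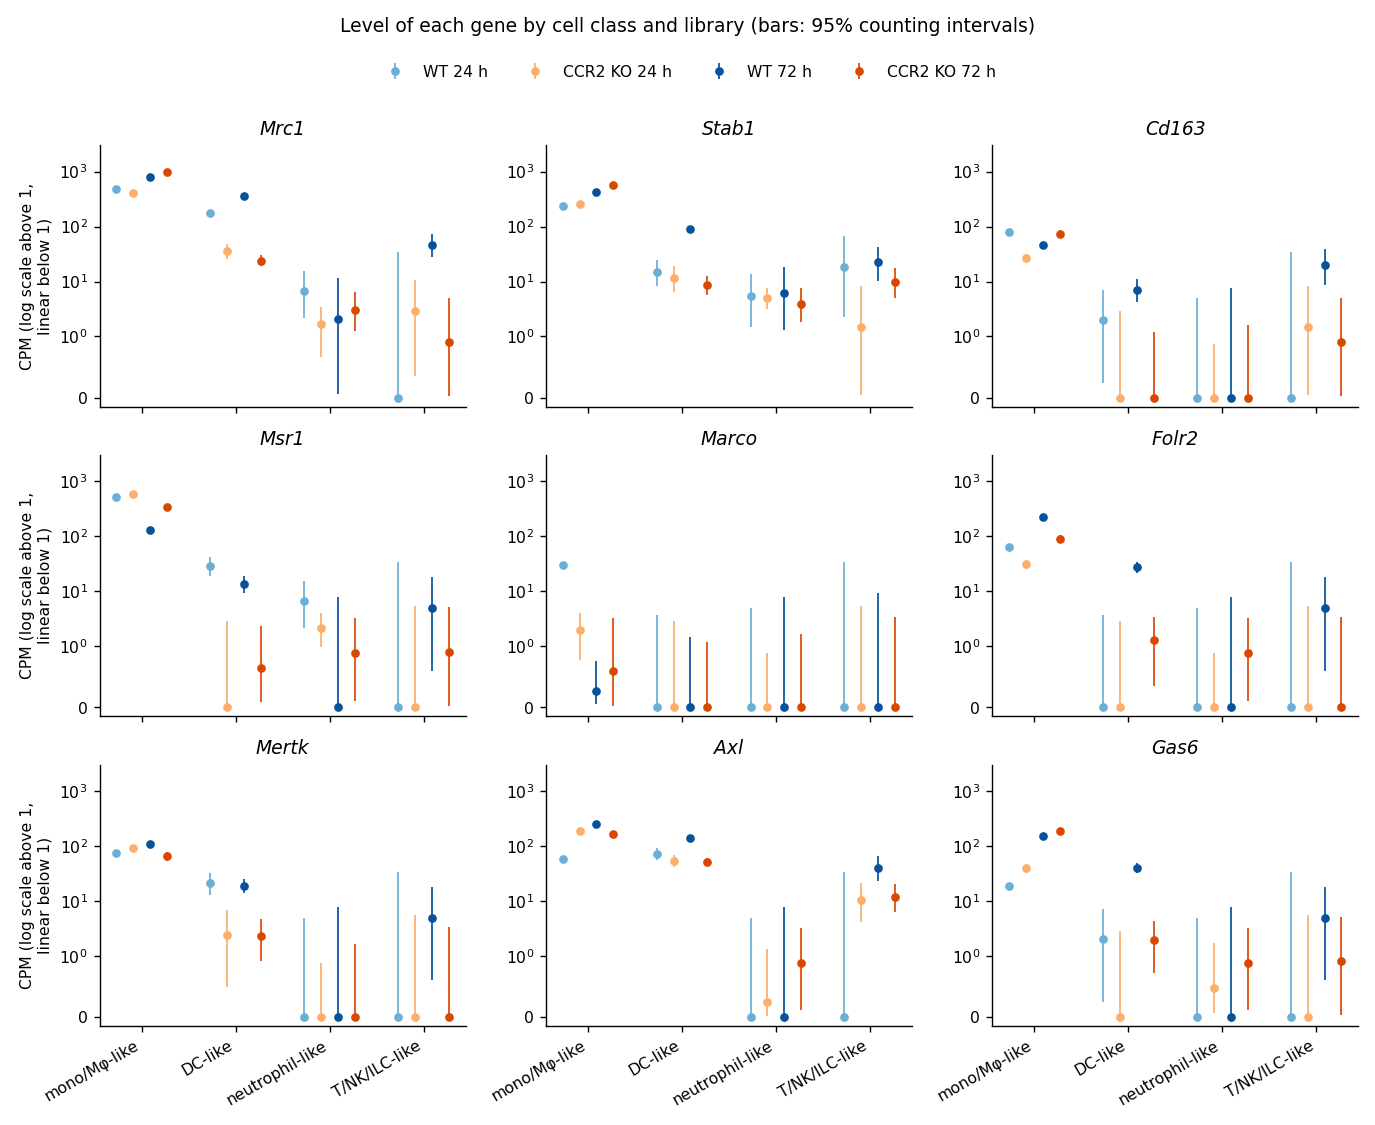
Level of each of the 9 genes (CPM, log axis above 1 and linear below) in 4 cell classes, 1 point per library with 95% counting intervals. Of these 4 classes the monocyte/macrophage-like one is highest for each gene and library except Axl in WT at 24 h (57.5 CPM, against 71.2 CPM in dendritic cell-like cells), an order that turned with cells gated singly (58.5 against 52.2 CPM). B cell-like cells are not drawn.

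Within monocyte/macrophage-like cells the receptors fell into several patterns over the 4 libraries. Median depth in the class was 14571, 15776.5, 13643 and 10893 UMIs per cell, lowest in CCR2 KO at 72 h.

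Mrc1, the mannose receptor, stood at 478 (95% interval 469 to 488), 413 (392 to 434), 792 (776 to 809) and 1000.4 (953 to 1049) CPM. Both 72 h libraries lay above both 24 h libraries. Stab1, the phosphatidylserine and lipoprotein receptor, stood at 235 (228 to 242), 262 (245 to 279), 422 (411 to 434) and 582 (546 to 619) CPM, in the same order by time, with CCR2 KO above WT at each time. On the reduced sets of cells described below this order turned for CCR2 KO at 72 h, both against WT at 72 h (log2 ratios of -1.05 and -0.76) and against CCR2 KO at 24 h (-0.41 and -0.12). Cd163, the haemoglobin receptor, followed neither, at 78.4 (74.5 to 82.5), 26.4 (21.4 to 32.2), 46.9 (43.1 to 51.0) and 73.1 (60.7 to 87.2) CPM. Its intervals overlapped for WT at 24 h and CCR2 KO at 72 h, the 2 high libraries, and it was lowest in CCR2 KO at 24 h.

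Of the class A scavenger receptors Msr1 ran the other way in time, while Marco was too low in CCR2 KO to be followed. Msr1 stood at 519 (508 to 529), 579 (554 to 604), 128 (122 to 135) and 333 (306 to 362) CPM, lowest in WT at 72 h. Marco was near its floor outside WT at 24 h, at 30.1 (27.7 to 32.6), 1.93 (0.774 to 3.97), 0.258 (0.0533 to 0.755) and 0.594 (0.0150 to 3.31) CPM from 578, 7, 3 and 1 UMIs. All 7 Marco UMIs of CCR2 KO at 24 h fell in Cx3cr1-like cells, and in 1 cell of them.

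Folr2, the folate receptor of resident macrophages, stood at 63.1 (59.6 to 66.7), 31.1 (25.6 to 37.4), 225 (217 to 234) and 90.3 (76.5 to 106) CPM. It was higher in WT than in CCR2 KO at both times and higher at 72 h than at 24 h in both genotypes.

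Of the phosphatidylserine bridge and its kinases, Mertk had the smallest ratio of highest to lowest level, at 72.6 (68.8 to 76.5), 93.0 (83.3 to 103), 107 (101 to 113) and 64.8 (53.2 to 78.1) CPM. Axl stood at 57.5 (54.1 to 61.0), 183 (169 to 197), 248 (239 to 257) and 162 (143 to 182) CPM, with WT at 24 h alone at the low end. The ligand gene Gas6 stood at 18.5 (16.6 to 20.5), 38.8 (32.6 to 45.7), 150.3 (143 to 158) and 184 (164 to 206) CPM, so that both 72 h libraries were above both 24 h libraries. In CCR2 KO this order held only with the Ccl8 and Stmn1-led cells described below, which carried 93.9% of Gas6 UMIs at 72 h, and without them and the neutrophil-gene-led cells the log2 ratio of 72 h over 24 h was -0.61.

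**Figure D2:**
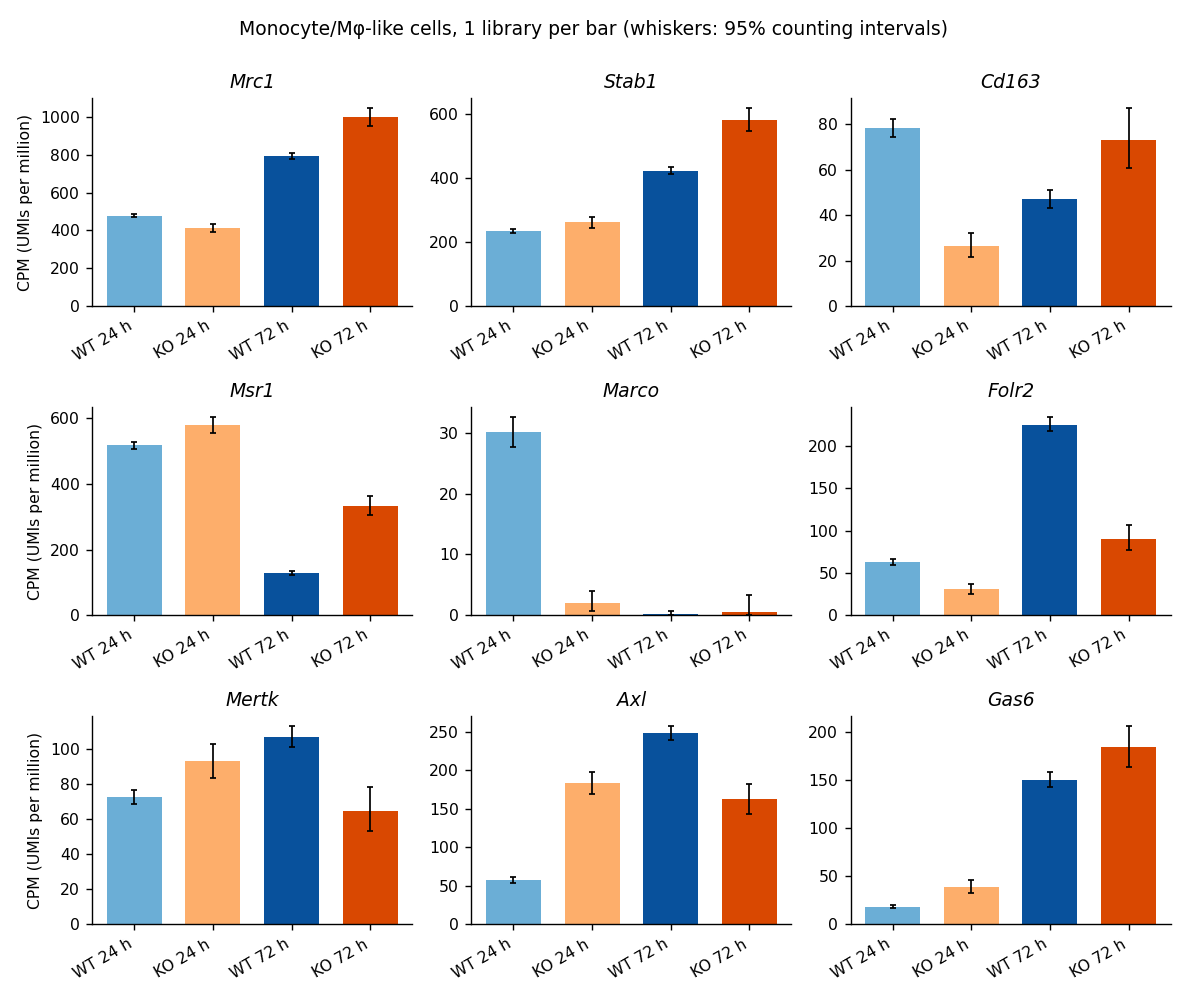
Level of each gene (CPM on a linear axis from 0, whiskers 95% counting intervals) in monocyte/macrophage-like cells, 1 bar per library. Mrc1, Stab1 and Gas6 are higher in both 72 h libraries, in CCR2 KO for Stab1 and Gas6 only with the Ccl8 and Stmn1-led cells (-0.41 and -0.61 on the log2 scale without them and the neutrophil-gene-led cells), Msr1 is lowest in WT at 72 h at 128 CPM, and Marco is near 0 outside WT at 24 h.

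Shares of cells gave a like picture once each cell was thinned to 1000 UMIs, which left out 10, 5, 11 and 17 shallower monocyte/macrophage-like cells. Mrc1 was then detected in 29.5%, 27.9%, 50.8% and 51.3% of the 1267, 215, 828 and 113 others, against 72.7%, 63.6%, 91.8% and 73.8% before thinning. Lymphoid-like cells had Mrc1 in 0%, 0%, 1.72% and 0% after thinning, and dendritic cell-like cells in 6.67%, 0%, 20.9% and 2.83%. Msr1 was detected in 39.5%, 44.2%, 11.4% and 34.5% of macrophage-like cells after thinning (94.1%, 90.0%, 68.5% and 76.2% before), Axl in 6.24%, 13.5%, 17.8% and 11.5%. Gas6 was detected in 3.72% of cells in CCR2 KO at 24 h, 9.78% in WT at 72 h and 20.4% in CCR2 KO at 72 h, and less often in WT at 24 h. Before thinning Axl was in 29.8%, 55.0%, 76.5% and 46.9% of cells and Gas6 in 11.2%, 16.8%, 45.1% and 46.9%. The Gas6 share in CCR2 KO at 72 h was thus above that of WT at 72 h at equal depth and close to it at full depth.

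CCR2 KO against WT at 24 h asks which of these genes differ when CCR2-dependent monocytes are few, early after injury. Axl was 3.18-fold higher in the CCR2 KO library (183 against 57.5 CPM, log2 ratio 1.67, interval 1.53 to 1.81) and Gas6 2.10-fold higher (38.8 against 18.5 CPM, 1.07, 0.78 to 1.35). Gas6 was not higher beyond counting error within the sub-clusters of at least 20 cells in both libraries, as given below. Cd163 was 2.97-fold lower (log2 ratio -1.57, -1.88 to -1.27), Folr2 2.03-fold lower (-1.02, -1.31 to -0.74) and Marco 15.6-fold lower from 7 UMIs against 578 (-3.97, -5.29 to -2.91). The Marco ratio was -2.22 with each library clustered singly, and 71.3% of its WT UMIs lay in 11 cells described below. Mertk (0.36, 0.18 to 0.53), Msr1 (0.16, 0.09 to 0.23), Stab1 (0.15, 0.05 to 0.26) and Mrc1 (-0.21, -0.29 to -0.13) differed by less than 2-fold.

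Over all 7356 genes with a mean of at least 10 CPM, 2.47% were over 2-fold higher and 1.33% over 2-fold lower in this comparison, against 2 and 3 of the 9 members. The median log2 ratio was 0.15 over the members and -0.06 over all genes. The 2-fold line itself was fragile for Gas6 and Folr2: as the mean of the cells' own CPM, Folr2 had a log2 ratio of -0.47 and Gas6 of 0.98. Fewer cells of a kind and less RNA per cell cannot be told apart in a summed level.

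At 72 h the CCR2 KO library had Msr1 2.60-fold higher (333 against 128 CPM, log2 ratio 1.38, 1.23 to 1.52) and Folr2 2.50-fold lower (90.3 against 225 CPM, -1.32, -1.57 to -1.08). Cd163 (0.64, 0.34 to 0.92), Stab1 (0.46, 0.36 to 0.56), Mrc1 (0.34, 0.26 to 0.41) and Gas6 (0.29, 0.11 to 0.47) were higher by less than 2-fold. Mertk (-0.73, -1.02 to -0.44) and Axl (-0.62, -0.80 to -0.44) were lower by less than 2-fold. Marco gave no ratio, with 1 UMI against 3.

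The background at 72 h was 4.78% of 7852 genes over 2-fold higher and 2.18% over 2-fold lower, against 1 and 1 of the 8 members that had a mean of at least 10 CPM. Their median log2 ratio was 0.31, against 0.11 over all genes. These values rested on 1 sub-cluster. It was led by Ccl8, Stmn1 and Cd4 and held 59 of the 130 cells of CCR2 KO at 72 h but 35 of 839 in WT. By the fixed lists this sub-cluster was named for genes of dividing cells (score 2.82, with 7 markers of that list present). Of these genes 2, Stmn1 and Pclaf, were among its 10 leading genes. Without it and a small sub-cluster led by neutrophil genes, 69 CCR2 KO cells remained against 795 WT cells, and the log2 ratio turned to -0.63 for Mrc1, -1.05 for Stab1, -2.48 for Cd163 and -2.56 for Gas6. Of those 69 cells 32 were in the low-depth sub-cluster. Cd163 had only 4 UMIs in 1 Cx3cr1-like cell and 1 in the low-depth cells left there, and Gas6 at most 7 UMIs in any sub-cluster. Folr2 was then at -1.95, Mertk at -1.27 and Axl at -1.05, while Msr1 was at 1.57. On these cells 1 of 8 members was over 2-fold higher (5.17% of 7677 genes) and 6 were over 2-fold lower (5.12%), with a median of -1.16 against 0.07 over all genes. With cells limited to at most 5% mitochondrial UMIs (45 CCR2 KO cells against 548 WT cells), Mrc1 was at -0.15, Stab1 at -0.76, Gas6 at -0.85, Msr1 at 1.64, Folr2 at -1.63 and Axl at -0.98. On all of these cell sets Msr1 was higher and Folr2, Mertk and Axl were lower in the CCR2 KO library.

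In WT the later library had more Gas6, by 8.13-fold (150.3 against 18.5 CPM, log2 ratio 3.02, 2.86 to 3.19), more Axl, by 4.31-fold (2.11, 2.01 to 2.21), and more Folr2, by 3.57-fold (1.84, 1.74 to 1.94). Stab1 (0.85, 0.79 to 0.90), Mrc1 (0.73, 0.69 to 0.77) and Mertk (0.56, 0.45 to 0.67) were higher by less than 2-fold. Msr1 was 4.04-fold lower at 72 h (-2.01, -2.09 to -1.94) and Marco 116-fold lower, from 3 UMIs against 578 (-6.86, -9.15 to -5.31). Of those 578 Marco UMIs, 71.3% lay in 11 large peritoneal macrophage-like cells described below. Cd163 was lower at -0.74 (-0.88 to -0.60), and at -1.75 in cells with at most 5% mitochondrial UMIs. The background was 6.74% of 7602 genes over 2-fold higher and 6.20% over 2-fold lower, against 3 and 2 of the 9 members. The members' median log2 ratio was 0.73, against -0.02 over all genes.

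In CCR2 KO the later library had Gas6 4.75-fold higher (184 against 38.8 CPM, 2.25, 1.96 to 2.55), Folr2 2.91-fold (1.54, 1.18 to 1.90), Cd163 2.77-fold (1.47, 1.07 to 1.87), Mrc1 2.42-fold (1.28, 1.18 to 1.38) and Stab1 2.22-fold higher (1.15, 1.02 to 1.28). Msr1 (-0.80, -0.93 to -0.66) and Mertk (-0.52, -0.85 to -0.21) were lower by less than 2-fold, and the interval for Axl included 0 (-0.18, -0.39 to 0.03). Marco, at 1 UMI against 7, had a log2 ratio of -1.70 with an interval of -7.19 to 1.26. Of the 8 members with a mean of at least 10 CPM, 5 were over 2-fold higher and 0 over 2-fold lower, against 9.48% and 4.19% of 7693 genes. Their median was 1.21, against 0.13 over all genes.

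This comparison rested on the same sub-cluster. Without it and the neutrophil-gene-led cells, in 69 cells at 72 h against 215 at 24 h, Folr2 was at 1.11 and Mrc1 at 0.30, while Stab1 was at -0.41, Cd163 at -1.80 and Gas6 at -0.61. At 72 h Cd163 and Gas6 rested there on the few UMIs named above. Then 1 of 8 members was over 2-fold higher (6.62% of 7511 genes) and 2 over 2-fold lower (4.25%), with a median of -0.60 against 0.07 over all genes. In cells with at most 5% mitochondrial UMIs Mrc1 was at 0.74, Gas6 at 0.94, Folr2 at 0.99, Stab1 at -0.12 and Cd163 at -0.16. The comparisons share libraries in pairs, and each is given for itself.

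**Figure D3:**
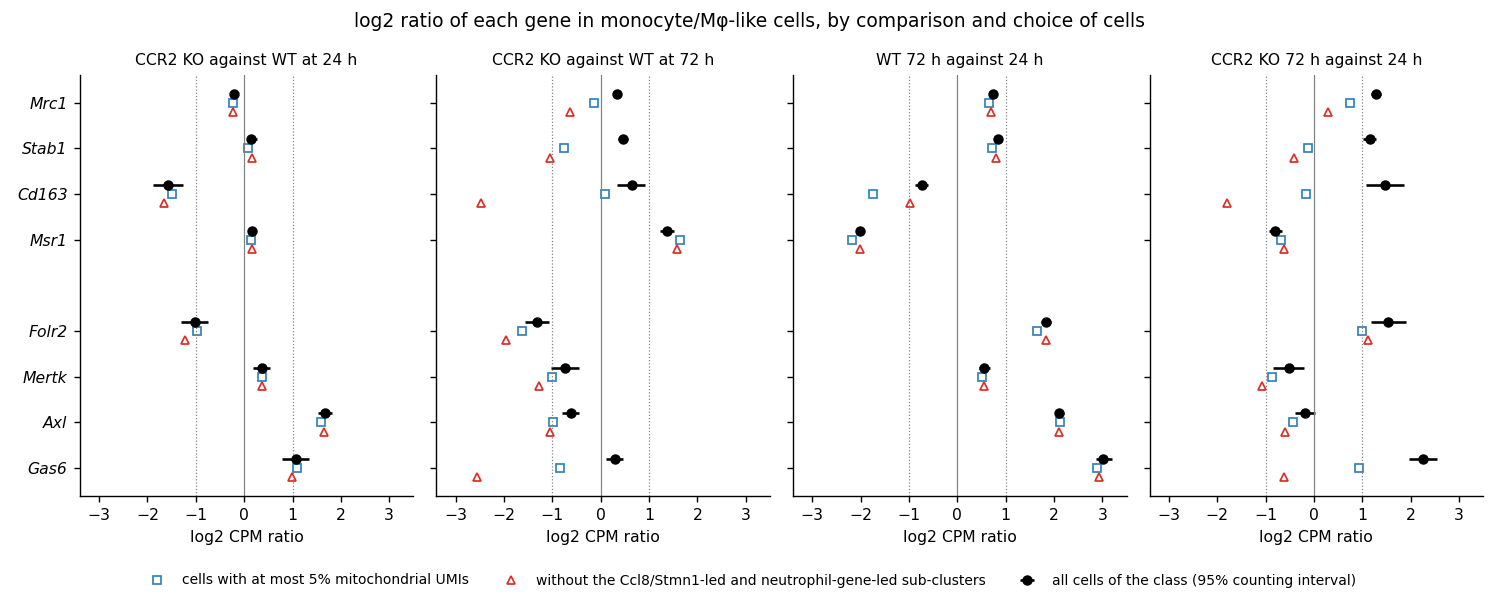
Log2 ratio of CPM for 8 genes (Marco not drawn) in the 4 comparisons, with filled circles for all cells of the class (95% counting interval), squares for cells with at most 5% mitochondrial UMIs and triangles for cells outside the Ccl8 and Stmn1-led and neutrophil-gene-led sub-clusters; dotted lines mark 2-fold. The symbols lie close together at 24 h and over time in WT except for Cd163, and spread widely in both comparisons that use CCR2 KO at 72 h, as for Gas6 at 0.29, -0.85 and -2.56 (the last from few UMIs).

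Monocyte/macrophage-like cells split into 14 sub-clusters, again made without the 9 genes, and different sub-clusters held most of the class in each library. WT at 24 h consisted mainly of Fabp5-like cells led by Pf4 (281), Ly6c monocyte-like cells led by Saa3 (258), cells led by the interferon-response gene Isg15 (255) and Fabp5-like cells led by Cxcl3 (141). CCR2 KO at 24 h had 70 of the Cxcl3-led and 49 Cx3cr1-like cells. WT at 72 h had 401 Selenop-like cells, 147 led by MHC class II genes and Ear2, and 129 Timp2-like cells. Of CCR2 KO at 72 h, 59 cells lay in the Ccl8 and Stmn1-led sub-cluster, the one named for genes of dividing cells. The members' levels by sub-cluster are given for those of at least 20 cells in a library, with an exception for Marco.

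At 24 h the Gas6 level was highest in the Cx3cr1-like cells of both genotypes (124 CPM in 23 WT cells and 151 CPM in 49 CCR2 KO cells), but its UMIs lay in different cells. In WT the Pf4-led Fabp5-like cells had Mrc1 at 926 CPM and held 48.3% of the library's macrophage Mrc1 UMIs and 64.8% of its Gas6 UMIs. In CCR2 KO the same sub-cluster (23 cells) had Mrc1 at 1000.2 CPM and 32.6% of Mrc1 UMIs, but 78.0% of Gas6 UMIs and 47.5% of Stab1 UMIs lay in the Cx3cr1-like cells. The Gas6 log2 ratio of CCR2 KO over WT was -0.85 (-1.78 to -0.05) within the Pf4-led cells and 0.29 (-0.30 to 0.91) within the Cx3cr1-like cells. For the whole class it was 1.07. The Cxcl3-led cells had 1 Gas6 UMI in CCR2 KO against 13 in WT, and cells led by Plac8 had 0 against 11. The 113 Folr2 UMIs of CCR2 KO at 24 h came to 36.3% from 3 Timp2-like cells. Ly6c monocyte-like cells were low for the bridge and the mannose receptor. The 258 Saa3-led cells had Mrc1 at 151 CPM and Gas6 at 0.261 CPM, and the 70 Hp-led cells had Mrc1 at 62.7 CPM and Gas6 at 0 CPM. Msr1 differed from both, at 570.2 and 319.5 CPM in these same Ly6c monocyte-like cells.

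The Cxcl3-led Fabp5-like cells were the sub-cluster best filled in both genotypes at 24 h, with 141 WT and 70 CCR2 KO cells. Axl within it was at 33.3 CPM in WT and 175 CPM in CCR2 KO (log2 ratio 2.39, 2.02 to 2.77), so the higher Axl of the CCR2 KO library was also present within this sub-cluster. Axl was higher too in the Plac8-led (1.25, 0.92 to 1.58) and Cx3cr1-like cells (0.80, 0.33 to 1.29). In the Pf4-led cells its interval included 0 (0.48, -0.19 to 1.09). Within the Cxcl3-led cells Mrc1 was at 536 and 256 CPM (-1.07, -1.24 to -0.89) and Msr1 at 809 and 629 CPM (-0.36, -0.48 to -0.25). Cd163 was at 182 CPM in WT, from 437 UMIs, and 0 UMIs were counted in CCR2 KO. In WT at 24 h, the Isg15-led cells had Axl at 117 CPM and held 38.6% of its UMIs.

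Marco was concentrated in few cells. In WT at 24 h, 11 large peritoneal macrophage-like cells, named from Gata6, Prg4, Alox15 and other genes of macrophages of the peritoneal cavity, held 71.3% of the 578 Marco UMIs at 2096 CPM. Mrc1 in those 11 cells was at 25.4 CPM and Folr2 and Gas6 were at 0. The 23 Cx3cr1-like cells of that library held a further 15.6% at 359 CPM and the Cxcl3-led cells 11.8% at 28.3 CPM. No such peritoneal-like cell was found in either CCR2 KO library, and WT at 72 h had 2. They made up 0.861% of the class in WT at 24 h and 0.238% in WT at 72 h. At such shares the 220 and 130 CCR2 KO cells of the class were too few to show an absence.

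At 72 h in WT the Selenop-like cells had Mrc1 at 948, Stab1 at 578 and Gas6 at 199 CPM, and held 57.2% of Mrc1, 65.4% of Stab1 and 63.2% of Gas6 UMIs. Folr2 instead lay mainly in the 129 Timp2-like cells, which had it at 711 CPM and held 54.3% of its UMIs and 42.0% of those of Cd163. The 147 cells led by MHC class II genes and Ear2 had the highest Axl of that library, at 370.0 CPM, with Gas6 at 18.9 CPM and Stab1 at 84.5 CPM. In WT at 24 h the 30 cells of the same sub-cluster had Axl at 175 CPM (log2 ratio of 72 h over 24 h 1.08, 0.71 to 1.47). Of the 4 sub-clusters with at least 20 WT cells at both times, Axl was higher at 72 h in these cells, in Cx3cr1-like cells (0.90) and in those of low depth (3.22), but not in the Hp-led Ly6c monocyte-like cells (-0.74, -2.77 to 0.88). Stab1 was lower at 72 h within all 4, at -0.51, -0.82, -0.94 and -1.46 in the order just given, against 0.85 for the whole class. Mrc1 was higher in the MHC class II-led and the Hp-led cells (1.34 and 1.58) and lower in Cx3cr1-like cells (-0.78). In those of low depth its interval included 0 (-0.46, -0.97 to 0.01). Gas6 was at -0.02 (-1.18 to 1.38) in the MHC class II-led and at -0.77 (-1.51 to -0.03) in the Cx3cr1-like cells, against 3.02 for the whole class.

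The Ccl8 and Stmn1-led sub-cluster of 72 h combined high Mrc1, Stab1 and Gas6. It made up 45.4% of the CCR2 KO cells but held 78.4% of Mrc1, 84.4% of Stab1, 95.9% of Cd163 and 93.9% of Gas6 UMIs. Msr1, at 51.5%, was held in near proportion to the sub-cluster's 57.2% share of all UMIs. Within it, WT and CCR2 KO had Mrc1 at 1238 and 1372 CPM (log2 ratio 0.15, -0.00 to 0.30), Stab1 at 853 and 858 CPM (0.01, -0.18 to 0.20) and Gas6 at 365 and 302 CPM (-0.27, -0.56 to 0.02). Intervals included 0 for these 3 genes and for Mertk (80.0 and 81.0 CPM, 0.02, -0.59 to 0.66). Msr1 was at 130.0 and 300.2 CPM (1.21, 0.78 to 1.66), Folr2 at 215 and 112 CPM (-0.94, -1.36 to -0.51) and Cd163 at 260.1 and 123 CPM (-1.09, -1.48 to -0.69). Msr1 and Folr2 thus differed within it in the direction of the whole class. The only other sub-cluster with at least 20 cells of both 72 h libraries was that of low depth (32 CCR2 KO and 27 WT cells), in which Msr1 was again higher in CCR2 KO (1.94, 1.20 to 2.72) but Folr2 went the other way (1.63, 0.27 to 3.09, from 14 and 8 UMIs). Of the cells of the Ccl8 and Stmn1-led sub-cluster, 51 of 59 in CCR2 KO and 18 of 35 in WT had over 5% mitochondrial UMIs. The part of this in the levels of that sub-cluster was not tested.

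**Figure D4:**
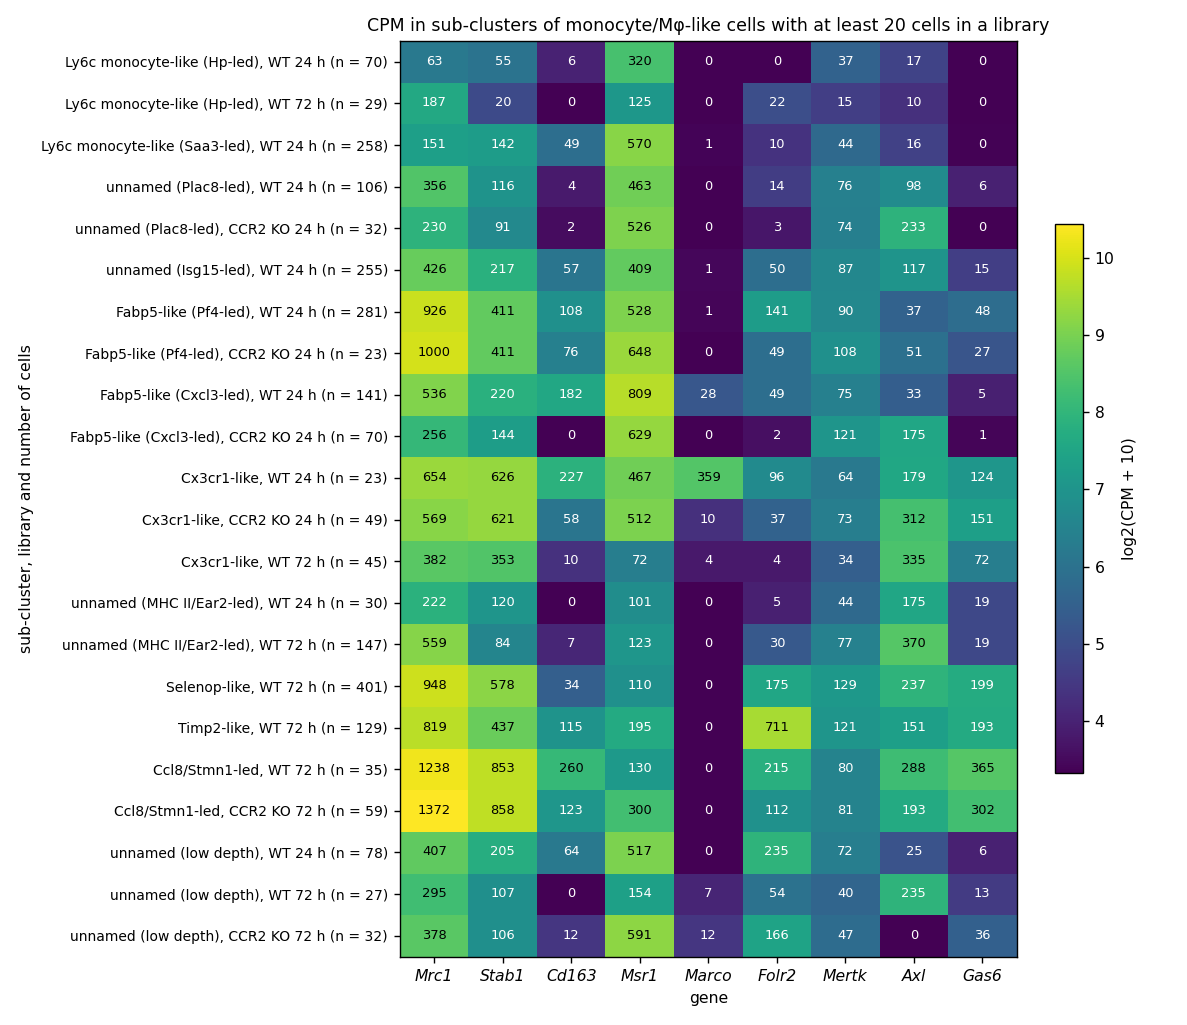
Level of each gene (printed in CPM, coloured as log2 of CPM + 10) in the monocyte/macrophage-like sub-clusters of at least 20 cells in a library. Mrc1 and Stab1 peak in the Ccl8 and Stmn1-led cells (1372 and 858 CPM in CCR2 KO at 72 h), Folr2 in Timp2-like cells at 711 CPM, and Axl in the cells led by MHC class II genes at 370.0 CPM.

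**Figure D5:**
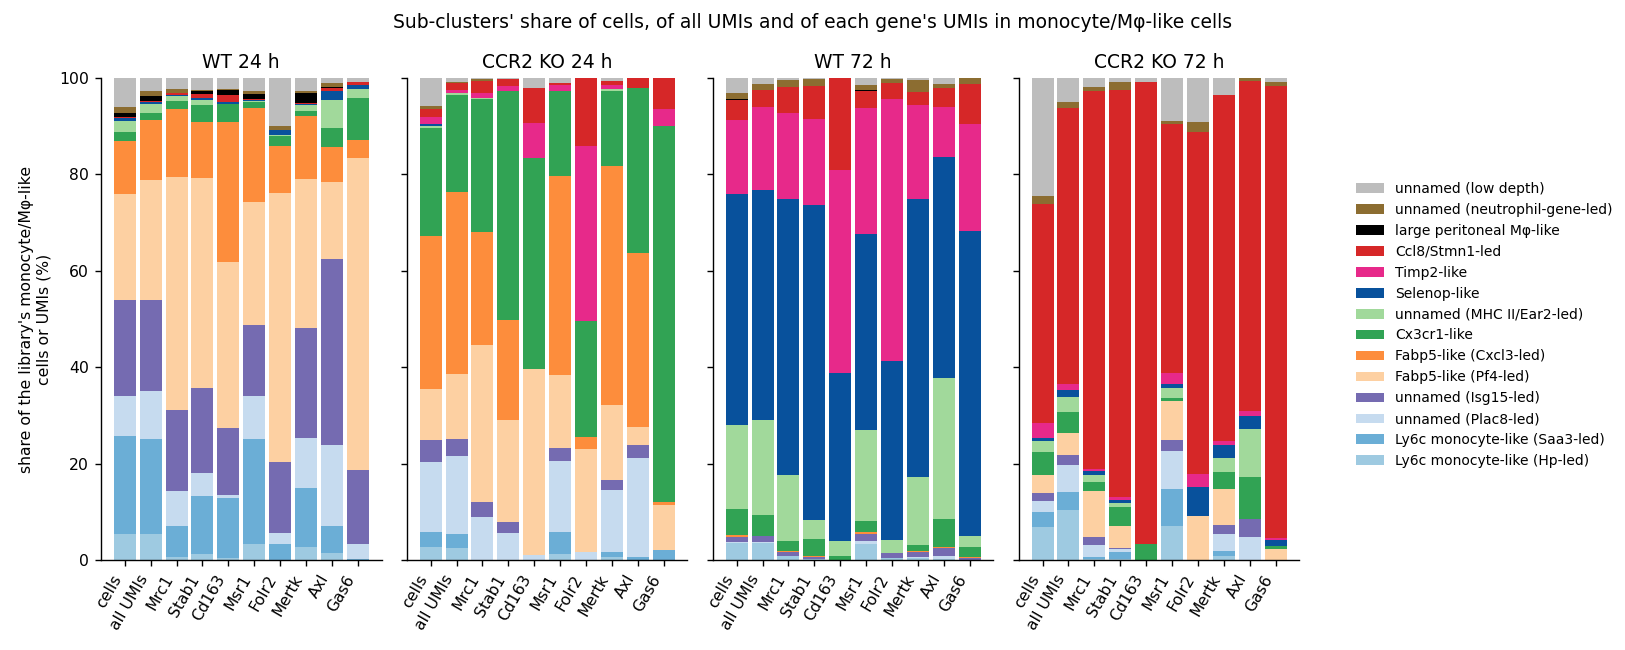
Share (%) of monocyte/macrophage-like cells, of all their UMIs and of each gene's UMIs that lay in each sub-cluster, 1 panel per library, Marco not drawn. In CCR2 KO at 72 h the Ccl8 and Stmn1-led sub-cluster held 57.2% of all UMIs, 93.9% of Gas6 and 51.5% of Msr1 UMIs.

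Over the 22 combinations of sub-cluster and library with at least 20 cells, the log2 levels of Stab1 and Gas6 had a Pearson correlation of 0.85, Mrc1 and Stab1 of 0.82, and Mrc1 and Gas6 and Stab1 and Cd163 of 0.79 each. Msr1 was not tied to Mrc1 (-0.04) or Stab1 (0.04) and ran against Axl (-0.45). The points share libraries and differ in depth, so these are descriptions. Among 5812 other genes the profile most like that of Mrc1 was Ap1b1 (0.93), that of Stab1 Mfsd11 (0.88), that of Cd163 Wdfy3 (0.85) and that of Msr1 Etf1 (0.97). For Folr2 it was Cbr2 (0.95), for Mertk Dab2 (0.80), for Gas6 Tgfbr2 (0.93) and for Axl the MHC class II gene H2-Eb1 (0.85), followed by H2-Aa (0.83).

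Detection in the same cell was compared after thinning to 5000 UMIs. In WT at 72 h Gas6 was found in 36.4% of 659 cells with Mrc1, and less often in the 92 cells without it (difference 27.7 percentage points, interval 19.4 to 33.4). In CCR2 KO at 72 h the shares were 47.2% of 72 cells and 0% of 19 cells (47.2 points, 27.1 to 58.6). Folr2 in WT at 24 h was found in 27.2% of 723 cells with Mrc1 and in 3.70% of 459 without (23.5 points, 19.8 to 27.2). Stab1 was more often found with Mrc1 in all 4 libraries, by 22.3 to 52.0 points. For Msr1 the interval of the difference included 0 in each library, from -1.62 points (-12.5 to 8.83) in WT at 72 h to 11.5 points (-10.6 to 35.1) in CCR2 KO at 72 h. A median of 3, 3, 4 and 4 of the 9 genes was detected per cell, and 34.7%, 34.2%, 57.9% and 60.4% of cells had at least 4.

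Other genes of the same pathways were counted in the monocyte/macrophage-like class by the 2-fold rule. The shares of all genes past 2-fold, higher and lower, were 2.47% and 1.33% for CCR2 KO over WT at 24 h, 4.78% and 2.18% at 72 h, 6.74% and 6.20% over time in WT, and 9.48% and 4.19% over time in CCR2 KO. Of 5 bridging proteins 4 had a mean of at least 10 CPM, and all 4 were over 2-fold higher at 72 h than at 24 h in WT (against 6.74% of all genes). Besides Pros1 these were C1qa, C1qb and C1qc, which encode subunits of the same complex. The C1q genes are also on the fixed marker list that named the class, so the 4 are not separate cases. Pros1, which encodes the MERTK ligand protein S, was at 56.4 against 15.9 CPM (log2 ratio 1.83) and C1qa, a subunit of complement C1q, at 4835 against 1559 CPM (1.63). In CCR2 KO 1 of 4, Pros1, was over 2-fold higher with time. Pros1 was also higher in CCR2 KO than WT at 24 h (33.3 against 15.9 CPM, 1.07), and C1qb was over 2-fold lower in CCR2 KO at 72 h.

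Of 14 other uptake receptors 9 were measured above 10 CPM, and 1 passed 2-fold in each comparison, too few to stand apart from the shares of all genes. Trem2, a lipid receptor of macrophages, was higher at 72 h in WT (522 against 153 CPM, 1.77) and lower in CCR2 KO than WT at 72 h (191 against 522 CPM, -1.45). Cd300lf, a phosphatidylserine receptor, was higher in CCR2 KO at 24 h (192 against 84.0 CPM, 1.19) and lower with time in CCR2 KO (69.5 against 192 CPM, -1.46). Of the 11 other scavenger receptors listed 10 were in the tables, with 5 or 6 above 10 CPM. The class B receptor Cd36 was higher in CCR2 KO at 24 h (241 against 40.9 CPM, 2.56) and at 72 h (274 against 50.5 CPM, 2.44), and no other of this list passed 2-fold between genotypes. With time, Lyve1 was over 2-fold higher in both genotypes, Scarb1 was higher in CCR2 KO, and Cd68 was lower in CCR2 KO (337 against 807 CPM, -1.26).

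Of 14 genes of engulfment and cargo handling 12 or 13 were above 10 CPM, and 0 passed 2-fold between genotypes at 24 h, where so few would be past it at the shares of all genes. At 72 h the haem oxygenase gene Hmox1 (719 against 179 CPM, 2.01) and the iron exporter gene Slc40a1 (55.2 against 11.5 CPM, 2.26) were higher in CCR2 KO. Without the Ccl8 and Stmn1-led and neutrophil-gene-led sub-clusters Hmox1 was at 1.90, but Slc40a1 turned to -2.77 on 1 UMI in CCR2 KO. Nr1h3, which encodes the sterol-sensing receptor LXRα, was lower at 72 h in WT (17.9 against 63.5 CPM, -1.83) and in CCR2 KO (16.0 against 53.6 CPM, -1.74). Slc40a1 was higher with time in CCR2 KO (55.2 against 7.43 CPM, 2.90), and at -2.40 without those sub-clusters. On the same cells the other pathway genes given with CPM kept their directions in both comparisons with CCR2 KO at 72 h. Cd36 was at 2.65, Trem2 at -1.47 and Nr1h3 at -1.80, while Cd300lf (-0.95) and Cd68 (-0.91) were then within 2-fold. Those named without CPM (C1qb against WT, and Pros1, Lyve1 and Scarb1 over time in CCR2 KO) were not recomputed on these cells.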

How the data were processed

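The authors deposited 1 matrix of whole-number UMI counts per library, made with Cell Ranger 3.0.2 and GRCm38 per the labels; Seurat is also named there. The design text states filters of 200 genes and 10% mitochondrial reads, and all cells used met them. Removed here were 12 cells with non-immune markers. The rest were clustered (scanpy 1.11.5, Leiden at resolution 1, 2000 variable genes, 30 components, 20 neighbours) without the 9 genes and Ccr2, giving 19 clusters named from marker lists. Scrublet called 11 cells (0.190%), too few to have worked, and doublets were kept. UMIs were summed per class and library as CPM. Levels have exact Poisson, ratios exact conditional binomial and shares exact binomial intervals at 95%, and differences of shares Newcombe intervals. Background counts used genes with a mean of at least 10 CPM. Pathway genes named are the up to 4 per comparison with the largest ratio past 2-fold and a mean of at least 20 CPM. The ratio code was tested on simulated counts. The members and lists were chosen with earlier results of these data known. Correlations used log2(CPM + 10).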

Additional observations from a re-analysis of the deposited data

Results flagged for a closer look

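For 4 genes the CCR2 KO over WT ratio in monocyte/macrophage-like cells pointed in opposite directions at the 2 times, a difference that was not tested because each group was 1 library. Axl, the uptake kinase, went from a log2 ratio of 1.67 at 24 h to -0.62 at 72 h, a difference of -2.29. Mertk went from 0.36 to -0.73, a difference of -1.08. Both kept opposite directions under all 11 alternatives, with differences of -2.71 to -2.19 for Axl and -1.63 to -1.01 for Mertk. Cd163 went from -1.57 to 0.64, a difference of 2.21. In cells with at most 5% mitochondrial UMIs its 72 h ratio was 0.08. Without the Ccl8 and Stmn1-led and the neutrophil-gene-led sub-clusters it lost its opposite directions (-1.65 at 24 h and, from few CCR2 KO UMIs, -2.48 at 72 h, a difference of -0.83). Mrc1 went from -0.21 to 0.34, a difference of 0.55, which lost its opposite directions in the same cells (-0.40) and in cells with at most 5% mitochondrial UMIs (0.08).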

How the results depend on the processing

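With 1 library per group no library could be left out. No paired analysis was possible because each group has 1 library and no result comes from a test. Mitochondrial share, sub-cluster makeup and library move together in CCR2 KO at 72 h and cannot be told apart, 130 cells stand for that class, and the cause of the changes below was not tested. The alternatives with every ratio on its main side of 0 were Scrublet calls removed, cells gated singly, libraries clustered singly, the cells' own CPM and size factors, and 3 chosen after seeing the data: without the low-depth sub-cluster, without the 5% highest Scrublet scores, and with the cluster led by Birc5 and Top2a.

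The median log2 ratio of CCR2 KO over WT at 72 h, 0.31 as reported, was 0.00 at resolution 2, -0.80 with at most 5% mitochondrial UMIs, -1.16 without the Ccl8 and Stmn1-led and the neutrophil-gene-led sub-clusters, and 0.08 with the separate cluster led by Birc5 and Top2a. At resolution 2 Gas6 was -0.12. With at most 5% mitochondrial UMIs Mrc1 was -0.15, Stab1 -0.76 and Gas6 -0.85. Without those sub-clusters Mrc1 was -0.63, Stab1 -1.05, Cd163 -2.48, Gas6 -2.56 and Slc40a1 -2.77, the pathway genes given with CPM having been recomputed after seeing the data. Cd163, Gas6 and Slc40a1 then rested on few CCR2 KO UMIs at 72 h. The median over time in CCR2 KO, 1.21 as reported, was 0.99 at resolution 2, -0.14 with the mitochondrial limit (Stab1 -0.12, Cd163 -0.16), 0.95 from the cells' own CPM, -0.60 without those sub-clusters (Stab1 -0.41, Cd163 -1.80, Gas6 -0.61, Slc40a1 -2.40) and 0.93 with the Birc5 and Top2a-led cluster. The median over time in WT, 0.73 as reported, was 0.65, 0.80 and 0.68 with the mitochondrial limit, the cells' own CPM and the Birc5 and Top2a-led cluster. The median at 24 h, 0.15 as reported, lay between 0.08 and 0.22 under all alternatives. With libraries clustered singly Marco was at -2.22 for CCR2 KO over WT at 24 h and -5.12 over time in WT.

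Background counts followed the filter. With a mean of at least 50 CPM, and then 1 CPM, in place of 10 CPM, genes over 2-fold higher were 73 and 634 in place of 182 for CCR2 KO over WT at 24 h, 91 and 1167 in place of 375 at 72 h, 161 and 1402 in place of 512 over time in WT, and 156 and 1983 in place of 729 over time in CCR2 KO. Genes over 2-fold lower were 32 and 344 in place of 98, 65 and 552 in place of 171, and 147 and 648 in place of 322 in the first, second and last of these, and 237 in place of 471 at 50 CPM over time in WT. The median log2 ratio over all genes was -0.064, 0.108, -0.022 and 0.131 in these 4 comparisons, and size factors subtract about that much.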
